A study of Danio rerio with 6 samples.

Results

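Hox genes encode homeodomain transcription factors that lie side by side in clusters. Along a cluster the paralog groups are numbered from 1 at the 3′ end to 13 at the 5′ end, and in the embryo the order of the genes follows the order of their domains along the body axis, with low groups in the hindbrain and high groups in the tail. In mammals several Hox genes are also active in blood stem and progenitor cells, together with cofactors of the Pbx and Meis families, and Mll (Kmt2a) is known to keep them active there.

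All genes of the count table whose Ensembl name, case ignored, is hoxa, hoxb, hoxc or hoxd followed by a number were taken, with no use of the measured values. This gave 47 of 32105 genes. The table names 32 of the 47 by the human ortholog only (HOXB4, for example), and these were given their zebrafish names from the genes beside them. They fell into 7 clusters, with 6 genes in hoxaa, 5 in hoxab, 11 in hoxba, 4 in hoxbb, 11 in hoxca, 3 in hoxcb and 7 in hoxda. The genes hoxa4a and hoxc13b were not matched and were not analysed here.

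RNA was compared between 3 libraries of IT325 homozygous mutants (allele t24980) and 3 of wild type, all labelled as whole body at 5 days post fertilization and as a mixture of wild-type strains. IT325 carries a nonsense allele of ikzf1, the gene for the zinc finger transcription factor Ikaros, and its truncated product lacks the C-terminal zinc fingers. By the study's methods the wild-type fish were siblings, and RNA came from 3 individually genotyped fish per genotype. The labels do not tie a library to a fish or clutch. The mutated gene ikzf1 (ENSDARG00000013539) measured 1073, 1730 and 1145 counts per 1000000 counts of the library (CPM) in mutants. In wild type it measured 282, 321 and 311 CPM. The log2 fold change of mutants over wild type was 2.21 (SE 0.174, edgeR adjusted p = 1.17e-04). A nonsense allele can leave the transcript in place, so this level does not check the genotype. None of the 47 genes lies on the chromosome of ikzf1.

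The tissue label did not match the markers. Skeletal muscle markers, 20 genes of which 2 had no count, summed to 6.21 to 9.28 CPM in mutants, against 5.99 to 8.75 CPM in wild type, and 8 of 15 retina and lens markers had no count in any library. Blood markers were abundant, and their sums differed between the groups in directions that depended on the cell type. Erythroid markers summed to 23477 to 32447 CPM in mutants, against 6906 to 10726 CPM in wild type, with 12 of 12 tested genes higher, and T cell markers to 595 to 703 CPM in mutants, against 1642 to 1744 CPM in wild type, with 11 of 11 lower. B cell markers had 8 of 8 tested genes lower, thrombocyte markers 5 of 6 higher and neutrophil markers 4 of 7 higher. Macrophage markers went both ways, with 4 of 8 tested genes higher and 2 lower. Their sum was 2384 to 2595 CPM in mutants, against 2992 to 3194 CPM in wild type. It includes cd74a and cd74b, which the study also found high in adult B cells. Both were lower in every mutant library, with cd74a at 1000, 1038 and 787 CPM, against 1519, 1655 and 1609 CPM in wild type. In contrast, marco, csf1ra, ctsk and spi1a were higher in every mutant library, so the sum does not give the direction of the list. Blood progenitor markers summed to 573 to 682 CPM in mutants, against 499 to 507 CPM in wild type, with 4 of 10 higher. Without tal1, which is in the erythroid list too, the sums were 439, 500.3 and 555 CPM in mutants, against 453, 469 and 451 CPM in wild type, and overlapped. Meis1b, described further on as a Hox partner, is also in the progenitor list. Endothelial markers summed to 149 to 176 CPM in mutants, against 69.1 to 95.4 CPM in wild type, with 8 of 14 higher. The sums of 3 other tissues were apart too. Nephron markers summed to 219 to 316 CPM in mutants, against 101 to 136 CPM in wild type (3 of 21 tested higher, 1 lower). Stroma gave 36.6 to 51.4 CPM in mutants, against 25.2 to 30.4 CPM in wild type (1 of 9 higher, 1 lower). Exocrine pancreas gave 56.0 to 72.1 CPM in mutants, against 38.3 to 50.2 CPM in wild type (2 of 4 higher). Their part in the Hox values was not tested, and in such bulk RNA fewer cells of a type and less RNA per cell cannot be told apart.

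The Hox genes were detected at very low levels in both groups. Libraries held 40732782 to 52954765 counts in mutants and 37390073 to 53279243 counts in wild type. Of these, the Hox genes together took 328, 379 and 366 counts in mutants, against 323, 409 and 433 counts in wild type. The summed level was 6.19, 9.30 and 8.58 CPM in mutants (8.03 ± 1.63, SD, n = 3) and 8.64, 10.1 and 8.13 CPM in wild type (8.96 ± 1.03, SD, n = 3), and the groups overlapped.

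A count of 3 was taken as the detection floor, the most that an observed 0 allows, and it corresponded to 0.0563 to 0.0802 CPM per library. Of the 47 Hox genes, 42 had a count in some library, 37 reached 3 counts in at least 1 library and 9 reached it in all 6 libraries. That last share was 19.1% of the Hox genes, beside 53.6% of all genes. Single libraries detected 19, 26 and 20 Hox genes in mutants and 25, 23 and 24 in wild type. Only 3 genes averaged at least 1 CPM over the 6 libraries, namely hoxa2b, hoxb4a and hoxb3a. CPM is not corrected for transcript length, which was not known here, so levels were compared between groups and not between genes. Reaching 3 counts depends on transcript length too, so the numbers of genes detected are descriptions that are not corrected for it.

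**Figure D1:**
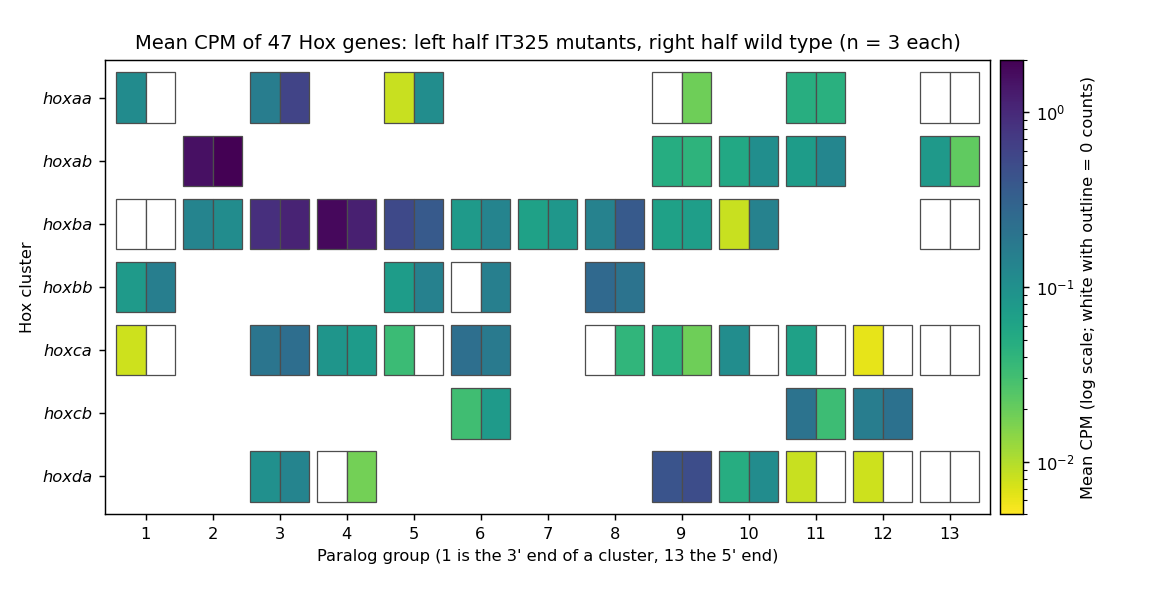
Mean CPM (colour, log scale) of the 47 Hox genes by cluster (rows) and paralog group (columns, 1 to 13), with IT325 mutants on the left and wild type on the right of each cell (n = 3 each). White cells with an outline had 0 counts in the group, and positions with no cell hold no gene of the table. Colours are to be read between the left and right of a cell, since levels are not corrected for length; 4 of the 5 genes of paralog group 13 are white on both sides.

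Along the clusters detection was patchy, and the genes at the far 5′ ends were mostly without counts. The 5 genes with no count in any library were hoxb1a, at the 3′ end of its cluster, and hoxa13a, hoxb13a, hoxc13a and hoxd13a, which are 4 of the 5 group 13 genes in the table and pattern the tail and the fin tip. The remaining one, hoxa13b, had 0, 3 and 7 counts in mutants, against 1, 0 and 2 counts in wild type. By paralog group, 8 of 10 anterior genes (groups 1 to 3), 14 of 15 central genes (groups 4 to 8) and 15 of 22 posterior genes (groups 9 to 13) reached 3 counts in some library, and 4, 3 and 2 of them did so in all 6 libraries.

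The hoxba cluster holds an uninterrupted row of genes from group 1 to group 10. Of its 11 genes, 4 reached 3 counts in all 6 libraries. In some library 9 of the 11 did, all but hoxb1a and hoxb13a, beside 37 of all 47 Hox genes. The other clusters gave 5 of 6 genes in hoxaa, 5 of 5 in hoxab, 4 of 4 in hoxbb, 8 of 11 in hoxca, 3 of 3 in hoxcb and 3 of 7 in hoxda. In hoxda the 3 genes were hoxd3a, hoxd9a and hoxd10a, while hoxd4a, hoxd11a and hoxd12a held at most 2 counts in any library.

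The genes around the clusters were mostly detected. The 70 nearest named neighbours were taken, 5 on each side of each cluster. Rows with clone-based (si:), ribosomal RNA, microRNA or linc names were skipped. Of the 70, 56 reached 3 counts in all 6 libraries, beside 9 of the 47 Hox genes and 53.6% of all genes. This rule was set after the Hox values had been seen, so the counts are a description. Between the Hox genes the table holds 22 further rows, of which 12 had no count in any library, among them all 8 rows of mir10 and mir196 genes. Mature microRNAs carry no poly-A tail and are not captured by such libraries.

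Several gene models of a cluster overlap in position. In the RefSeq annotation the hoxb3a model overlaps hoxb4a, hoxb5a and hoxb6a, hoxa3a overlaps hoxa5a, hoxb1b overlaps hoxb5b and hoxb6b, hoxd3a overlaps hoxd4a, and hoxc3a overlaps 5 genes of its cluster. Tools were run at default settings unless stated, at which featureCounts ignores strand and leaves out reads that fall on exons of more than one gene. The overlaps listed are of whole gene models, introns included, so shared exons were not checked. Where exons are shared, reads are left out whatever their strand, and antisense reads are not told apart. Values of these genes are uncertain to that extent.

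The summed level of every cluster overlapped between the groups. It was 0.331 ± 0.14 CPM in mutants, against 0.773 ± 0.401 CPM in wild type for hoxaa, and 3.67 ± 1.27 CPM in mutants, against 3.61 ± 0.695 CPM in wild type for hoxba (SD, n = 3 each). The hoxab cluster measured 1.84 ± 0.514 CPM in mutants, against 2.28 ± 0.779 CPM in wild type, and hoxbb 0.418 ± 0.112 CPM in mutants, against 0.664 ± 0.214 CPM in wild type. In each of these clusters the highest mutant library lay above the lowest wild-type library. For hoxca the sums were 0.78 ± 0.135 CPM in mutants, against 0.547 ± 0.301 CPM in wild type, for hoxcb 0.40 ± 0.165 CPM in mutants, against 0.328 ± 0.195 CPM in wild type, and for hoxda 0.590 ± 0.12 CPM in mutants, against 0.763 ± 0.238 CPM in wild type. By position, anterior genes summed to 3.26 ± 0.351 CPM in mutants, against 4.35 ± 1.04 CPM in wild type, central genes to 3.30 ± 0.934 CPM in mutants, against 3.16 ± 0.401 CPM in wild type, and posterior genes to 1.46 ± 0.528 CPM in mutants, against 1.45 ± 0.159 CPM in wild type.

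**Figure D2:**
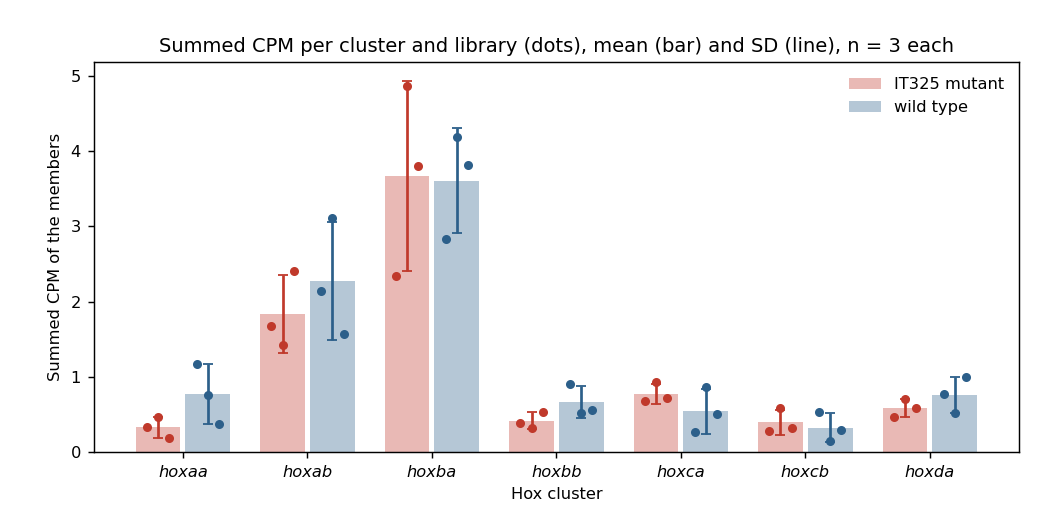
Summed CPM of the Hox genes of each of the 7 clusters (x axis) in each library (dots), with the mean (bar) and SD (line) of IT325 mutants (left bar of each pair) and wild type (right bar), n = 3 each. The dots of the 2 groups overlap in every cluster.

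The change in mutants could be tested for 9 of the 47 Hox genes (19.1%), those that passed the filter on low counts, which 55.5% of all genes passed. These 9 hold 74.0% of the Hox counts. None was called at an edgeR adjusted p under 0.05 (Benjamini-Hochberg over all genes tested), whereas 33.9% of all genes tested were called, 17.5% higher and 16.4% lower (3122 and 2918 genes, or 2428 and 3743 without scaling factors). Among tested genes with a mean level up to that of the highest Hox gene, 21.2% were called. At an unadjusted p under 0.05 there were 2 of the 9, hoxa3a and hoxb8a, beside 44.2% of all genes tested. DESeq2 gave an adjusted p to 25 Hox genes and called 1 of them, hoxb6b, which is not among the 9. Of all genes to which it gave an adjusted p, it called 30.8%. Of the 9 fold changes 4 were positive and 5 negative, with a median log2 fold change of -0.14, beside -0.01 for all genes tested. The groups did not overlap for 2 of the 9, both lower in mutants. Over all genes tested this held for 51.4%, 20.3% higher and 31.1% lower.

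**Figure D3:**
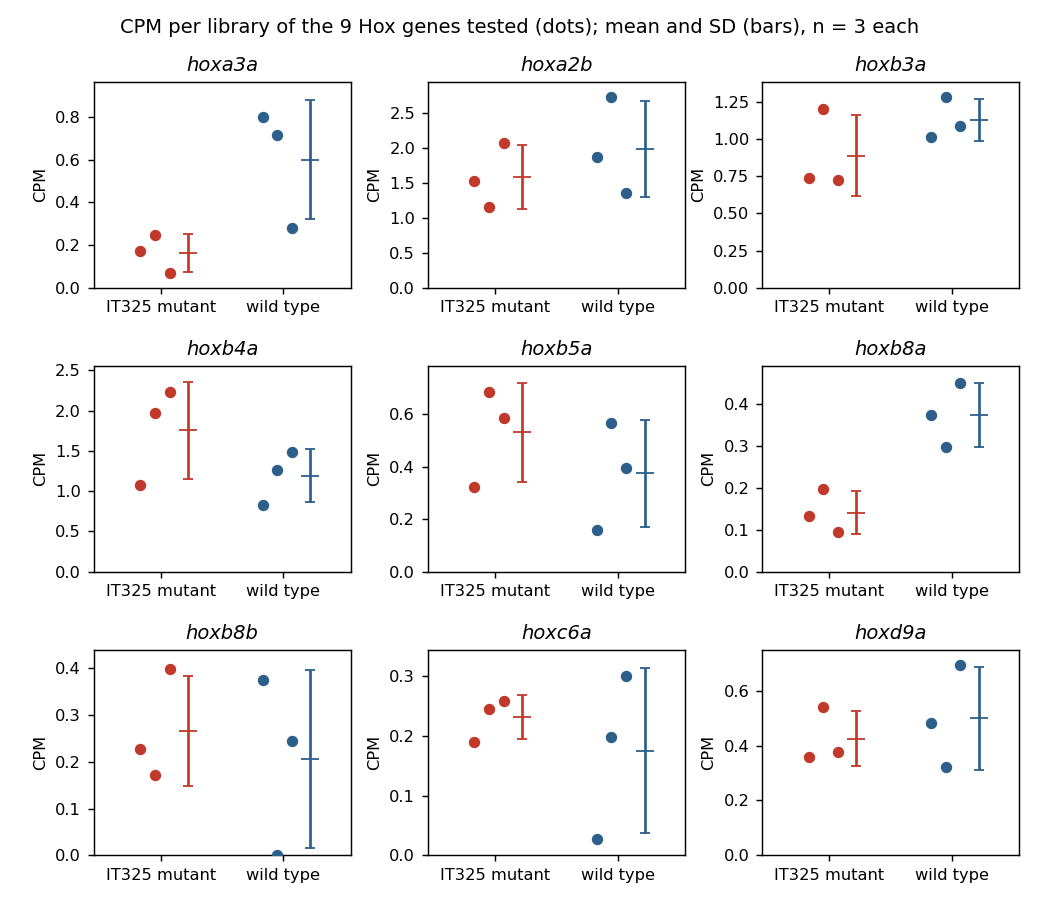
CPM per library (dots) of the 9 Hox genes that passed the filter, in IT325 mutants (left) and wild type (right), with the mean and SD as bars (n = 3 each). Each panel has its own y axis from 0; the groups are apart in the panels of hoxa3a and hoxb8a and overlap in the other 7.

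Of the 3 tested anterior genes, hoxa3a was the one whose groups were apart. In the mouse its ortholog is required for the thymus and parathyroid to form. It measured 0.170, 0.246 and 0.0703 CPM in mutants (9, 10 and 3 counts), against 0.802, 0.717 and 0.282 CPM in wild type (30, 29 and 15 counts). All 3 mutant values lay below the lowest wild-type value, but the difference of -1.76 on the log2 scale (SE 0.655, 95% interval -3.25 to -0.26) did not pass the test (edgeR adjusted p = 0.0694, Benjamini-Hochberg). Leaving out wild-type replicate 3 gave -2.11 with an adjusted p of 0.0346. The adjusted p lay between 0.0346 and 0.198 over the settings that changed 1 choice, the test against a 1.5-fold change not included. Leaving out wild-type replicate 3 and dropping the filter on low counts as well gave -2.10 with 0.0341.

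The other tested anterior genes overlapped between the groups. The hindbrain and pharyngeal arch gene hoxa2b measured 1.53, 1.15 and 2.06 CPM in mutants, against 1.87, 2.72 and 1.35 CPM in wild type (log2 fold change -0.22, SE 0.345, 95% interval -1.0 to 0.57, edgeR adjusted p = 0.664). Its sign turned to 0.070 without wild-type replicate 2. For hoxb3a the values were 0.737, 1.2 and 0.727 CPM in mutants, against 1.02, 1.29 and 1.09 CPM in wild type (-0.25, SE 0.352, 95% interval -1.05 to 0.56, adjusted p = 0.626). The mutant value of replicate 2 lay among the wild-type values.

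The central genes were mixed in sign, with 2 neighbours of hoxba measuring higher and hoxb8a lower. The gene hoxb4a, whose human ortholog HOXB4 expands blood stem cells when overexpressed, measured 1.08, 1.96 and 2.23 CPM in mutants, against 0.829, 1.26 and 1.48 CPM in wild type. The difference of 0.64 on the log2 scale (SE 0.358, 95% interval -0.17 to 1.46) did not pass the test (edgeR adjusted p = 0.20). Its neighbour hoxb5a, whose ortholog marks long-term blood stem cells in the mouse, measured 0.321, 0.687 and 0.586 CPM in mutants, against 0.16, 0.569 and 0.394 CPM in wild type (0.59, SE 0.566, 95% interval -0.70 to 1.87, adjusted p = 0.457). Both genes overlapped between the groups.

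The gene hoxb8a, whose mouse ortholog blocks the maturation of myeloid progenitors when overexpressed, had 7, 8 and 4 counts in mutants, against 14, 12 and 24 counts in wild type. That is 0.132, 0.196 and 0.0937 CPM in mutants, against 0.374, 0.297 and 0.450 CPM in wild type. The groups were apart, with a difference of -1.30 on the log2 scale (SE 0.569), and the gene did not pass the test (edgeR adjusted p = 0.112, unadjusted p = 0.0495). The unadjusted p was 0.0936 in edgeR without the filter on low counts and 0.111 in DESeq2.

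Of the remaining tested genes, hoxb8b and hoxc6a rested on a few counts or on single libraries. The duplicate hoxb8b had 12, 7 and 17 counts in mutants, against 14, 0 and 13 counts in wild type (log2 fold change 0.45, SE 0.938, edgeR adjusted p = 0.741), and hoxc6a had 10, 10 and 11 counts in mutants, against 1, 8 and 16 counts in wild type (0.45, SE 0.746, adjusted p = 0.678). The 5′ gene hoxd9a measured 0.359, 0.540 and 0.375 CPM in mutants, against 0.481, 0.322 and 0.694 CPM in wild type (-0.145, SE 0.483, 95% interval -1.25 to 0.96, adjusted p = 0.840). The sign of each of these 3 turned when 1 wild-type library was left out, to -0.12 for hoxb8b without replicate 2, -0.019 for hoxc6a without replicate 1 and 0.18 for hoxd9a without replicate 3. The 95% intervals of the 9 genes were wide, and each reached a log2 fold change of 1 or beyond in at least one direction.

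**Figure D4:**
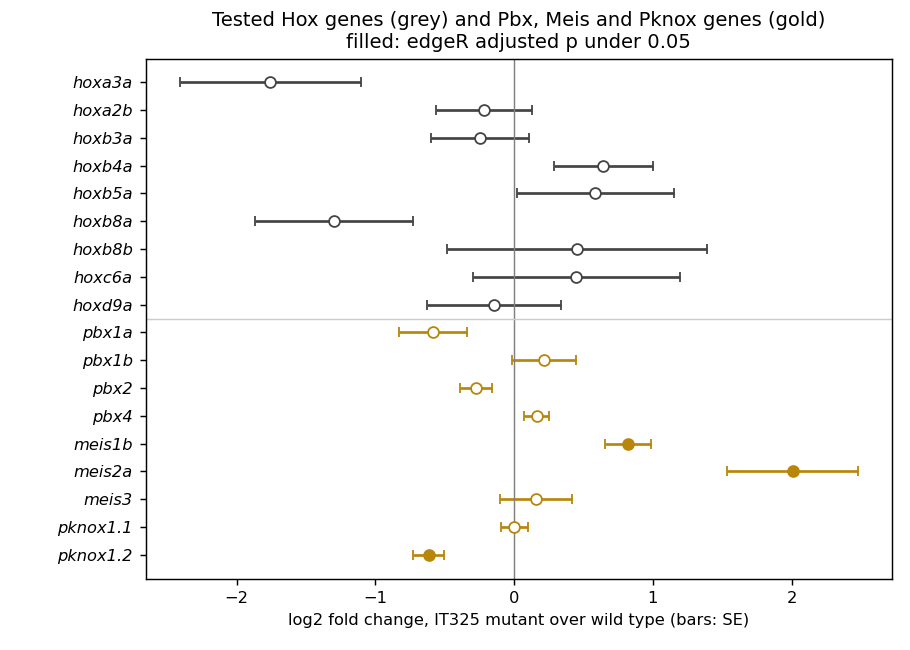
Log2 fold change of IT325 mutant over wild type (x axis) with its SE (bars) for the 9 tested Hox genes (grey) and the 9 tested Pbx, Meis and Pknox genes (gold), filled where the edgeR adjusted p was under 0.05. No Hox gene is filled; the filled genes are meis1b at 0.82, meis2a at 2.01 and pknox1.2 at -0.62.

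The other 38 Hox genes did not pass the filter, and 33 of them had a count in some library. In 5 of these 33 the groups did not overlap, 2 higher and 3 lower in mutants. Among all genes under the filter with a count, 14% did not overlap, 8.92% higher and 5.07% lower, so the share of 5 in 33 (15.2%) was near that of all such genes. Of the 42 Hox genes with any count, the mean level was lower in mutants for 23 (54.8%) and higher for 19, beside 54.6% lower over all genes.

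These 5 genes were named after their values had been seen. Higher in every mutant library was hoxa1a, a hindbrain patterning gene at the 3′ end of its cluster, with 8, 3 and 5 counts in mutants and none in wild type, at least 5.13-fold higher against a floor of 3 counts over the wild-type group. The 5′ gene hoxc11b had 11, 12 and 5 counts in mutants, against 3, 0 and 1 in wild type. Of the lower genes, hoxb6b had no count in mutants and 7, 5 and 8 counts in wild type, at least 6.93-fold lower against the same floor over the mutant group. Such bounds limit only the group with no count and take the counts of the other group as exact. Lower in every mutant library, too, were hoxa5a, with 0, 1 and 0 counts in mutants, against 9, 2 and 2 in wild type, and hoxb10a, with 0, 1 and 0 counts in mutants, against 4, 9 and 5 in wild type. For hoxa5a only 1 wild-type library reached the floor of 3 counts, so its separation lies under the floor. Its adjusted p was 0.201 in the edgeR fit without the filter. Without the filter, edgeR called 22.7% of all genes with a count and, of the genes under the filter, 2.2% (1.76% higher, 0.445% lower). There hoxb6b passed, with an adjusted p of 0.0386, and in DESeq2 it had 0.0299. The call was lost when any 1 of the 6 libraries was left out, with adjusted p between 0.0593 and 0.10 (edgeR) and fitted log2 fold changes of -5.90 to -5.62, which rest on the prior count since the mutants held no count. In the fit without the filter hoxa1a had an adjusted p of 0.0581. The row beside hoxb6b in the cluster, si:dkey-11c5.14, lies between hoxb8b and hoxb6b. It had 35, 15 and 13 counts in mutants, against 34, 39 and 31 in wild type, and the groups overlapped.

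**Figure D5:**
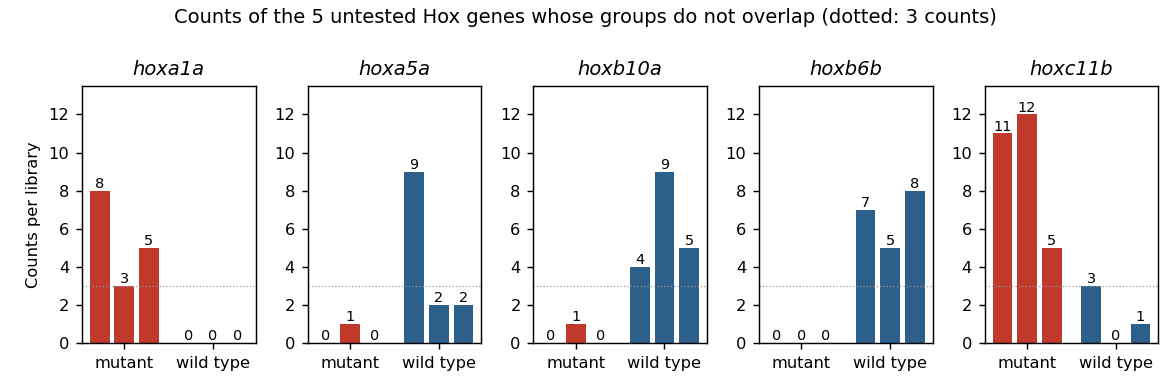
Counts per library (y axis) of the 5 untested Hox genes whose groups did not overlap, with the 3 IT325 mutant libraries (left bars) and the 3 wild-type libraries (right bars) in each panel; the dotted line marks the floor of 3 counts. All bars are at most 12 counts, and hoxa1a and hoxb6b have one group at 0.

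Other genes were counted in one group only without separating the libraries. The 5′ hoxca gene hoxc10a had 11, 0 and 5 counts in mutants and none in wild type. Its neighbour hoxc11a had 0, 6 and 2 counts in mutants and none in wild type. With the mutant counts taken as exact, they were at least 5.13-fold and 2.56-fold higher over the group floor. In the edgeR fit without the filter the adjusted p was 0.0912 for hoxc10a and 0.176 for hoxc11a. In all, 8 of the 33 untested Hox genes with a count had counts in mutants and none in wild type (24.2%), 4 of them on a single count, and 4 had counts in wild type and none in mutants (12.1%). Over all genes under the filter with a count these shares were 23.3% and 11.2%, so the Hox genes were near them. Some untested genes were seen in most libraries at a few counts each. Near the 3′ end of hoxba, hoxb2a had 2, 12 and 3 counts in mutants, against 3, 1 and 12 counts in wild type. Further along the cluster, hoxb6a had 2, 6 and 2 counts in mutants, against 4, 11 and 1 in wild type, and hoxb7a had 0, 6 and 2 counts in mutants, against 4, 5 and 1 in wild type. In each of these genes 1 library of either group stood highest, and the groups overlapped. The groups also overlapped in the hoxbb cluster, with 1, 3 and 6 counts for hoxb1b in mutants, against 8, 8 and 3 in wild type, and 8, 3 and 0 for hoxb5b in mutants, against 5, 8 and 6 in wild type. The genes hoxa11b and hoxc3a reached the floor in all 6 libraries without passing the filter. For hoxa11b there were 3, 3 and 4 counts in mutants, against 6, 6 and 4 in wild type, and for hoxc3a there were 7, 9 and 10 counts in mutants, against 8, 17 and 4 in wild type. At the 5′ end of hoxcb, hoxc12b had 4, 12 and 5 counts in mutants, against 14, 2 and 12 in wild type, and the groups overlapped. The other untested genes had at most 13 counts in any library, as hoxd3a did in wild-type replicate 3, and their groups overlapped.

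The cofactors of the Hox proteins and the regulators of Hox clusters were mostly detected, and some were called. Lists of 70 partner and regulator genes were used, of which 62 were matched and 44 tested, 7 higher and 11 lower, with 26 not past the test and a median log2 fold change of -0.11, beside the 33.9% called over all genes. Of the Pbx genes, which bind DNA together with Hox proteins, 4 were tested and none was called. The 4 are pbx1a (log2 fold change -0.58, adjusted p = 0.102), pbx1b (0.22, 0.501), pbx2 (-0.27, 0.0944) and pbx4 (0.16, 0.189), all edgeR with Benjamini-Hochberg adjustment.

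Of 5 tested Meis and Pknox genes, the partners that also bind Pbx, 3 were called, beside 33.9% of all genes tested. Meis1b, whose mouse ortholog is needed for blood stem cells, rose to 9.88, 12.0 and 10.3 CPM in mutants, against 5.54, 5.89 and 8.09 CPM in wild type (log2 fold change 0.82, SE 0.167, edgeR adjusted p = 0.0058). Its relative meis2a rose to 0.963, 0.687 and 1.2 CPM in mutants, against 0.16, 0.247 and 0.338 CPM in wild type (2.01, SE 0.471, adjusted p = 0.0115). Pknox1.2 fell to 15.9, 19.5 and 15.7 CPM in mutants, against 27.5, 30.4 and 26.3 CPM in wild type (-0.62, SE 0.11, adjusted p = 0.0031). In all 3 the groups did not overlap. The other 2, meis3 (log2 fold change 0.16, edgeR adjusted p = 0.671) and pknox1.1 (0.0006, adjusted p = 0.995), were not called. The blood, endothelial, nephron, stroma and exocrine pancreas markers given above differed in their sums between the same groups. Their part in these changes was not tested.

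Among regulators that hold Hox genes active or silent, 3 of 9 and 7 of 20 were called, shares near the 33.9% of all genes tested. Of the 9 activators, dot1l (log2 fold change 0.45) and men1 (0.41), which encodes menin, a partner of the Mll protein, were higher, and kmt2a itself was lower at 174 ± 23.3 CPM in mutants, against 258 ± 43.6 CPM in wild type (-0.46, edgeR adjusted p = 0.0196). That call was lost without mutant replicate 1 or wild-type replicate 2. Of the 20 genes of Polycomb complexes, which silence Hox clusters, and of the demethylases that oppose them, those higher included phc2b (1.16), and 5 were lower, ezh1 (-0.40), jarid2a (-0.63), jarid2b (-0.83), cbx2 (-0.48) and cbx8a (-0.49). The calls of jarid2a and cbx2 were each lost in 4 of the 6 fits that left out 1 library, with log2 fold changes of -0.71 to -0.52 for jarid2a and -0.58 to -0.38 for cbx2, and that of cbx2 also with a replicate block.

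Retinoic acid signalling, which switches on 3′ Hox genes in the embryo, was represented by a list of 18 genes, of which 13 were matched and 6 tested. The receptor genes rarga, rargb, rxraa, rxrab and rxrba were not matched, so the receptor set is incomplete. Rows named RARG lie beside hoxca and hoxcb but were not assigned to rarga or rargb. The row beside hoxca measured 54.8, 55.4 and 64.5 CPM in mutants, against 100.4, 101.9 and 94.7 CPM in wild type. The row beside hoxcb had at most 5 counts in any library. Of the 6 tested genes 5 were called, beside 33.9% of all genes tested. The receptor genes raraa (-0.56), rarab (-0.71), rxrbb (-0.84) and rxrga (-0.99) were lower and rxrgb (0.94) was higher. The receptor gene rarab had 35.8, 41.9 and 46.7 CPM in mutants, against 73.5, 74.98 and 69.9 CPM in wild type (adjusted p = 3.73e-04, edgeR). The gene of the synthesising enzyme, aldh1a2, did not pass (-0.15, adjusted p = 0.902), with 2.08 CPM in wild-type replicate 3 and at most 0.891 CPM in the other libraries. The ParaHox and Evx genes, the relatives of the Hox genes, were not tested in any case, and evx1 had no count.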

How the data were processed

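RNA was sequenced from 3 IT325 mutant and 3 wild-type libraries of zebrafish. Poly-A RNA was made into stranded libraries per the labels. The authors aligned paired-end reads with STAR 2.5.2b-1 and took counts for Ensembl genes by featureCounts 1.6.0.1, at default settings, which ignore strand; the deposited values are raw counts per gene, with no scaling. RefSeq annotation of another build (GRCz12tu) served for names, gene order and overlaps between gene models only, and none of its coordinates are printed. Transcript lengths were not used here, so levels were not compared between genes, and detection was not corrected for length.

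Counts were tested in edgeR 4.0.16 under R 4.3.3 (filterByExpr with a minimum count of 10, TMM, robust quasi-likelihood, no covariate), two-sided, with Benjamini-Hochberg adjustment over all 17828 genes tested and a threshold of 0.05. The prior count was 0.125. The SE is the absolute log2 fold change divided by the square root of F. CPM are counts per 1000000 of the column total, without the TMM factors. A count of 3 was the floor (about 95% confidence for an observed 0). The floor covers counting error only, and reads without molecular identifiers are not independent molecules. Fold bounds against the floor take the counts of the other group as exact. The 95% intervals of log2 fold changes use the SE of the edgeR fit and a t distribution, so they include the estimated spread between libraries. DESeq2 1.42.0 was an alternative, as were other scalings and filters, a stricter threshold, a 1.5-fold test, a replicate block and leaving out each library. The steps were tested on simulated data.

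The Hox genes, the lists and the tests were chosen with earlier results of these data known. The named genes are the tested Hox genes, called partner and regulator genes, tested Pbx, Meis and Pknox genes, and ikzf1. Other Hox genes were named after their values were seen. The rule's part on levels per length could not be applied. One called gene of the regulator lists is not reported here. List genes were matched by symbol (228 of 331 entries) or by neighbours (68, with at least 4 shared), and 35 were left out.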

Additional observations from a re-analysis of the deposited data

How the results depend on the processing

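The number of genes called among all genes, 6040, was 2126 against a 1.5-fold change and 3419 at an adjusted p under 0.01. Leaving out 1 library gave 4588 to 5978. The count of Hox genes called, 0, was 1 without the filter on low counts (hoxb6b), 1 with DESeq2 (hoxb6b), 0 to 1 when 1 library was left out (hoxa3a without wild-type replicate 3) and 0 to 1 without the filter when 1 library was left out (hoxa3a, chosen after seeing the data). Of the partner and regulator genes 18 were called, 2 against a 1.5-fold change, 12 at an adjusted p under 0.01 and 16 to 20 when 1 library was left out. Detected Hox genes were 37 at 3 counts, 42 at 1 count and 17 at 10 counts, and 35 to 37 when 1 library was left out.

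When 1 library was left out, the log2 fold change of hoxa3a lay between -2.13 (without mutant replicate 2) and -1.39 (without mutant replicate 3). Of these fits only that without wild-type replicate 3 (-2.11) passed the test. Leaving out 1 library moved hoxa2b between -0.44 and 0.070 (positive without wild-type replicate 2), hoxb8b between -0.12 (without wild-type replicate 2) and 1.13, hoxc6a between -0.019 (without wild-type replicate 1) and 1.1, and hoxd9a between -0.38 and 0.18 (positive without wild-type replicate 3). In each case the cause was not tested. With no scaling factors there were 2428 higher and 3743 lower calls, against 3122 and 2918, and the median over all tested genes was -0.11 on the log2 scale, against -0.01. The 18 called partner and regulator genes kept their sign and their call under the 4 scalings.

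Same-numbered libraries correlated at 0.0559, 0.122 and 0.0939 in their deviations from the group means, so the numbers were not taken as pairs; with the replicate block 5370 genes, 0 Hox genes and 17 partner and regulator genes were called.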
